A study of Mus musculus with 12 samples.

Results

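The cyclic AMP response element binding protein (CREB) family and its coactivators were followed at the level of messenger RNA in mouse intestine. The group holds 8 genes, chosen by name: the transcription factors Creb1, Crem and Atf1, the acetyltransferases Crebbp and Ep300, and the CREB-regulated transcription coactivators Crtc1, Crtc2 and Crtc3. All 8 were found among the 54532 genes of each table, and all 8 had a mean of at least 0.5 FPKM in both, so none was lost to the filter on low values. FPKM, the unit of the deposited values, corrects fragment counts for the length of the gene and the depth of the library.

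CREB1, CREM and ATF1 are close relatives that bind the cAMP response element as dimers through a basic leucine zipper. When cyclic AMP rises, protein kinase A phosphorylates them, and the phosphorylated form recruits CBP and p300, the products of Crebbp and Ep300, which acetylate histones and other proteins. CRTC proteins are held in the cytoplasm by 14-3-3 proteins after phosphorylation by salt-inducible kinases. Once dephosphorylated, for example by calcineurin, they enter the nucleus and join CREB on DNA. Because much of this control is exerted on the proteins, transcript levels describe how much of each message is present and not how active its product is.

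The study deleted ieCtnnb1, an intestinal enhancer upstream of Ctnnb1, the gene of β-catenin, and asked which transcription factors may act on it, CREB1 and HNF4α among them. Crypts of the small intestine, the epithelial pits that hold stem cells and Paneth cells, were isolated with EDTA from adult untreated mice, 3 libraries labelled wild type and 3 labelled ieCtnnb1KO. Colon tumors came from adult untreated APCmin/+ mice, 3 libraries, and from APCmin/+;ieCtnnb1KO mice, 3 libraries; the study describes its tumor-bearing mice as 5 months old. The ieCtnnb1 deletion is a homozygous germline deletion made with CRISPR/Cas9 on a C57BL/6 background, so every cell of the mouse carries it, and all 6 tumor libraries share the heterozygous Apc Min allele, which truncates the Apc protein. The study's figure legends give 3 mice for each of these groups, and the labels give each library a replicate number.

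FPKM multiplied by gene length came out as whole multiples of a single step in each library. With that step taken as 1 fragment, the libraries held between 14457896 and 16156712 fragments on genes. Each member rested on enough of them to be measured in single libraries: Crem, the scarcest, on 71 to 100 fragments per crypt library and 297 to 453 per tumor library, and Creb1 on 696 to 1029 and 1275 to 1408. Libraries of a group differed by more than sampling noise, with a median chi-square per gene of 2.51 to 8.40 between pairs. Mitochondrial genes held 13.5%, 19.0% and 15.2% of the fragments in wild-type crypts and 11.5%, 10.7% and 14.9% in knockout crypts. In tumors they held 1.69%, 2.27% and 2.03% in controls and 1.56%, 1.77% and 1.45% in the knockout. The groups overlapped in both tissues, and the part of this share in the levels of the CREB genes was not tested. Each tissue has its own table and its own fit, and levels in the 2 tissues are set side by side below without a test.

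The labelled tissues were checked against marker genes. In crypts, the 8 epithelial markers summed to 4312, 5089.8 and 5385 FPKM in wild-type replicates 1 to 3, with Krt8 the most abundant, and the 4 stem cell markers to 1003, 802 and 561 FPKM, led by Olfm4. Markers of fibroblasts and smooth muscle summed to 6.02, 3.58 and 5.08 FPKM in the same libraries, with Dcn the most abundant of the 8, and the 4 endothelial markers, led by Pecam1, to 0.883, 0.830 and 0.679 FPKM. The 12 leukocyte markers summed to 60.2, 63.7 and 67.1 FPKM, with Cd8a on top and S100a8 at 0 in all 6 crypt libraries. In APCmin/+ tumors the epithelial list summed to 4425, 4446 and 3885 FPKM, again led by Krt8. Markers of stroma and blood cells were detected there as well. The fibroblast and smooth muscle list summed to 456, 325 and 298 FPKM, with Col1a1 the most abundant by mean. The leukocyte list summed to 595, 684 and 747 FPKM, with Lyz2 the most abundant by mean. Neither gene was the highest of its list in every library. The endothelial list summed to 30.9, 29.0 and 26.1 FPKM, led by Cdh5. Olfm4, at 0.209, 0.184 and 0.158 FPKM, was near 0 in these colon tumors, where Smoc2 was the most abundant of the 4 stem cell markers.

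The wild-type crypt libraries varied more than the knockout crypt libraries. Over the tested genes, the median absolute log2 difference of a library to the others of its group was 0.283, 0.243 and 0.299 in wild-type crypts and 0.186, 0.192 and 0.199 in knockout crypts. In tumors the order was the other way, with 0.189, 0.168 and 0.190 in controls and 0.192, 0.227 and 0.221 in the knockout. Wild-type replicate 1 had the highest Creb1 and the lowest villus enterocyte sum of the 6 crypt libraries. Wild-type replicate 3 had a summed Paneth cell marker level of 50414 FPKM, against 17925 and 26190 FPKM in the other wild-type libraries and 19676, 17233 and 17863 FPKM in the knockout libraries. Most of this gap lay in Defa24, a Paneth cell defensin with close relatives among which fragments may be divided. It was the most abundant of the 6 markers by mean, at 7359, 10163 and 32836 FPKM in wild type. Lyz1, next by mean and above Defa24 in replicate 2, was at 7348, 10821 and 11466 FPKM. On this marker replicates 2 and 3 were close, and Defa17 was higher in replicate 2 than in replicate 3. Wild-type replicate 3 had the lowest Creb1, Atf1 and Crebbp of the 6 crypt libraries. It had the highest Ep300, at 7.79 FPKM, and its Crem, Crtc1, Crtc2 and Crtc3 lay between those of the other wild-type libraries. It also had the lowest stem cell sum, 561 FPKM, of which Olfm4 held 530 FPKM. Smoc2 and Ascl2 were lowest there too. Lgr5 was not, at 5.73 FPKM against 4.95 FPKM in wild-type replicate 1 and 5.29, 4.14 and 3.96 FPKM in the knockout. The villus enterocyte sum of wild-type replicate 3 was 8202 FPKM, against 2885 and 4463 FPKM in the other wild-type libraries and 6249, 4722 and 7441 FPKM in the knockout. On this list it was near knockout replicate 3. Fabp2 was the most abundant villus enterocyte marker by mean over the crypt libraries, but not in wild-type replicate 3. The crypt values of Creb1, Atf1 and Crebbp and the median of the members are given with and without it. Without replicate 1 Creb1 was at a log2 fold change of 0.13, Atf1 at 0.21 and Crebbp at 0.38, the last then with an unadjusted p under 0.05. Whether the makeup of either library has a part in the levels of the CREB genes was not tested.

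**Figure D1:**
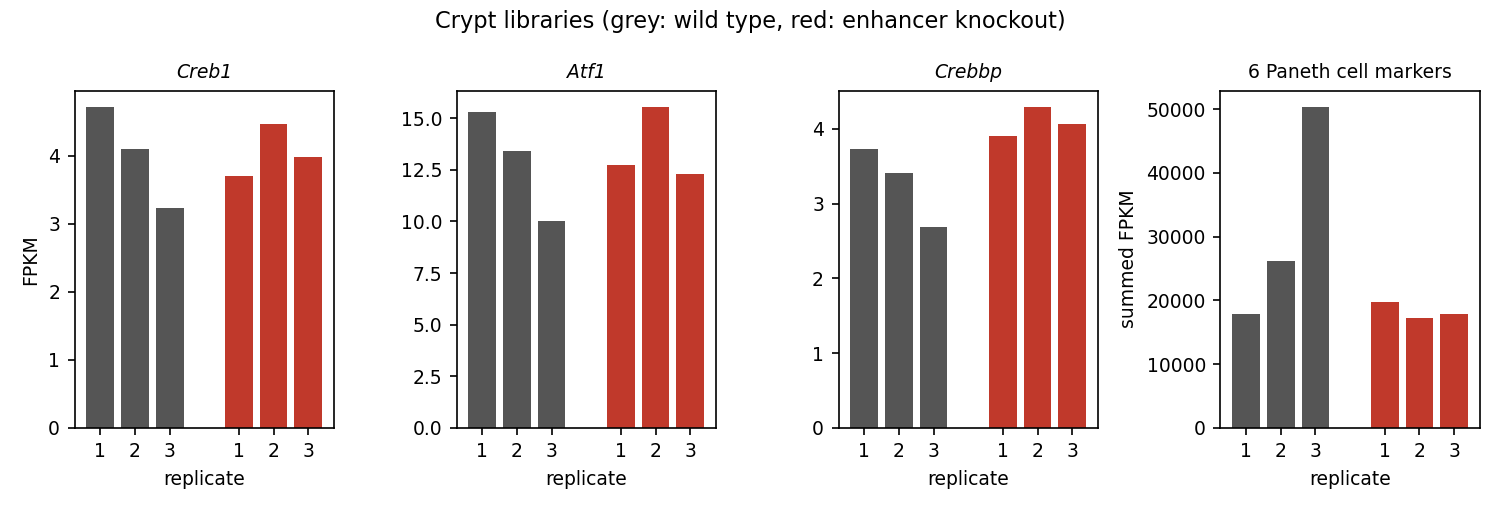
FPKM of Creb1, Atf1 and Crebbp and summed FPKM of 6 Paneth cell markers (vertical axes from 0) in each crypt library, with wild type in grey and the enhancer knockout in red. Wild-type replicate 3 is the lowest for the 3 genes, at 3.23, 10.03 and 2.69 FPKM, and the highest for the Paneth cell markers, at 50414 FPKM. The other members, not drawn, were not lowest in it, and Ep300 was highest in it, at 7.79 FPKM.

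Markers of cell types in tumors are given here by genotype, and none of them had a limma adjusted p under 0.05. Those with an unadjusted p under 0.05 were 3 of 8 epithelial, 4 of 4 goblet cell, 5 of 8 fibroblast and smooth muscle, 1 of 4 endothelial and 2 of 8 tested leukocyte markers, and no stem or Paneth cell marker, beside 14.5% of all tested genes. All 8 epithelial markers had the 3 knockout libraries above the 3 controls (11.4% of all tested genes did), and their sum was 5219.5, 5070.3 and 5403 FPKM in the knockout. The median log2 fold change of the epithelial markers was 0.31, and 0.09 with quantile normalization. All 4 goblet cell markers did so as well, led by Tff3, with sums of 644, 539.6 and 529.7 FPKM in controls and 988, 1447 and 1189.5 FPKM in the knockout. Of the 8 fibroblast and smooth muscle markers 4 lay above (11.4%), with sums of 475, 565 and 486 FPKM in the knockout. Leukocyte markers summed to 549, 606 and 450.5 FPKM there, with 2 of 8 tested markers below in all 3 libraries (10.6% of all tested genes), and endothelial markers to 33.6, 31.9 and 31.1 FPKM, with 1 of 4 above (11.4%). Paneth cell markers, led by Lyz1, summed to 1809, 1903 and 2024 FPKM in controls and 2694, 3964 and 1589.6 FPKM in the knockout, and stem cell markers to 71.6, 90.7 and 80.8 FPKM in controls and 89.5, 62.2 and 71.6 FPKM in the knockout. In crypts, the goblet cell sums were 3004, 4994 and 4448 FPKM in wild type and 2797, 3353 and 4228 FPKM in the knockout, and 2 of 6 Paneth cell markers had all knockout libraries below (5.15% of all tested genes). All 6 Paneth cell markers had a negative log2 fold change there, with a median of -0.63 (-0.41 without wild-type replicate 3), and all 6 villus enterocyte markers a positive one, with a median of 0.49 and overlapping groups. Without wild-type replicate 1 the villus median was 0.19, with 5 of 6 positive, and without wild-type replicate 3 it was 0.84. An unadjusted limma p under 0.05 was found in crypts for 2 of 6 Paneth cell markers, beside 5.85% of all tested genes. It was also found for 1 of 2 tested fibroblast and smooth muscle markers, whose median was -0.56. Of 9 tested leukocyte markers 7 had a negative log2 fold change, with a median of -0.12, while 52.8% of all tested genes had a positive one. The part of these cell types in the levels of the CREB genes was not tested.

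Ctnnb1 is the target of the deleted enhancer, and its level gives the setting for the CREB genes. In wild-type crypts it was at 121, 134 and 123 FPKM in replicates 1 to 3, and in knockout crypts at 102, 104 and 105 FPKM. In APCmin/+ tumors it was at 299, 363 and 358 FPKM, against 279, 248 and 250.2 FPKM with the enhancer deleted. All 3 knockout libraries lay below all 3 controls in both tissues. The limma adjusted p was 0.849 in crypts and 0.303 in tumors, so Ctnnb1 did not pass the threshold across all genes in either.

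CREB1, the factor through which the family is named, had a modest transcript level in crypts. Creb1 (ENSMUSG00000025958, chr1:64532645-64604548 on the plus strand of GRCm38) was at 4.72, 4.11 and 3.23 FPKM in wild-type crypts and at 3.71, 4.47 and 3.98 FPKM in knockout crypts, in the order of the replicates. The groups overlapped, and the knockout range lay inside the wild-type range. The log2 fold change, computed on log2(FPKM + 0.5) here and throughout, was 0.02 with a 95% interval of -0.36 to 0.40 (limma adjusted p = 0.996). It was -0.11 without wild-type replicate 3 and -0.05 without knockout replicate 2, so this small difference had no stable sign.

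In tumors, Creb1 varied less between libraries than any other member. It was at 6.001, 6.11 and 6.20 FPKM in APCmin/+ tumors and at 6.23, 6.39 and 6.34 FPKM in APCmin/+;ieCtnnb1KO tumors. The 3 knockout libraries lay above the 3 controls, though narrowly, with the highest control at 6.20 and the lowest knockout library at 6.23 FPKM. The log2 fold change was 0.05, with an interval of -0.15 to 0.25 (limma adjusted p = 0.813; exact permutation p = 0.1, the smallest that 3 libraries against 3 can give). With libraries scaled without their 50 highest genes it was 0.00449, and the median of all tested genes went from 0.01 to -0.03 with it. The interval leaves room for a difference of up to 0.25 on the log2 scale in tumors and of up to 0.40 in crypts.

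ATF1 shares the DNA-binding domain of CREB1 and can pair with it. Its gene, Atf1, had the highest FPKM of the 3 factors in each of the 12 libraries. In wild-type crypts it was at 15.3, 13.4 and 10.03 FPKM and in knockout crypts at 12.7, 15.6 and 12.3 FPKM, with overlapping groups and a log2 fold change of 0.08 (-0.09 without wild-type replicate 3). In tumors it was at 15.9, 14.3 and 13.3 FPKM against 15.9, 14.9 and 14.6 FPKM, with overlap and a log2 fold change of 0.07 (0.00787 to 0.13 when single libraries were left out, the ends being without control replicates 3 and 1). Crem encodes both activators and, from an internal promoter, the short repressor ICER, which FPKM per gene cannot separate. Crem had the lowest level of the 8 genes in crypts, at 0.778, 1.11 and 0.952 FPKM in wild type and 0.813, 0.891 and 1.18 FPKM in the knockout, and its small log2 fold change there, 0.01, ran from -0.09 without knockout replicate 3 to 0.09 without wild-type replicate 2. In tumors Crem was at 3.11, 3.21 and 4.14 FPKM in the controls and 3.78, 4.04 and 4.93 FPKM in the knockout, where the groups overlapped through control replicate 3 (log2 fold change 0.25, interval -0.11 to 0.62). Without knockout replicate 3 this value was 0.16.

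The shares of the 3 factors in their sum do not depend on how libraries were scaled, and those of each factor overlapped between the genotypes in both tissues. Creb1 made up 22.7%, 22.1% and 22.7% of the summed FPKM of Creb1, Crem and Atf1 in wild-type crypts and 21.5%, 21.4% and 22.8% in knockout crypts. In tumors its share was 24.0%, 25.9% and 26.3% in controls and 24.0%, 25.2% and 24.5% in the knockout. Crem had a share of 3.74%, 5.96% and 6.70% in wild-type crypts, 4.71%, 4.26% and 6.77% in knockout crypts, 12.4%, 13.6% and 17.5% in control tumors and 14.6%, 16.0% and 19.0% in knockout tumors. Atf1 held 73.6%, 72.0% and 70.6% in wild-type crypts, 73.8%, 74.4% and 70.5% in knockout crypts, 63.5%, 60.5% and 56.2% in control tumors and 61.4%, 58.8% and 56.5% in knockout tumors. Thus the share of Crem was higher in every control tumor library than in every wild-type crypt library.

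CBP and p300 are paralogous acetyltransferases that serve as coactivators of many transcription factors, CREB and the β-catenin and TCF complex among them. Crebbp (chr16:4081328-4213997, minus strand) was at 3.73, 3.41 and 2.69 FPKM in wild-type crypts and 3.90, 4.30 and 4.06 FPKM in knockout crypts, with all 3 knockout libraries above all 3 controls. In tumors the order was the opposite: 7.80, 8.56 and 7.66 FPKM in APCmin/+ and 6.26, 7.40 and 7.23 FPKM in APCmin/+;ieCtnnb1KO, with all 3 knockout libraries below. The log2 fold change of Crebbp was 0.29 in crypts (interval -0.05 to 0.63, limma adjusted p = 0.860) and -0.19 in tumors (interval -0.44 to 0.06, limma adjusted p = 0.424). The crypt value was 0.17 without wild-type replicate 3, and the tumor value was -0.12 without knockout replicate 1. Of the 13370 genes tested in both tables, 46 (0.344%) had knockout libraries all above the controls in crypts and all below them in tumors. The pattern counted is the one that Crebbp showed, and the opposite pattern was not counted. This share is a description and carries no test. The difference between the tissues was not tested.

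Ep300 (chr15:81585351-81652077, plus strand) was lower in the tumors with the deletion. It was at 12.3, 13.9 and 13.1 FPKM in APCmin/+ tumors against 10.2, 12.01 and 9.05 FPKM in APCmin/+;ieCtnnb1KO tumors, and the groups did not overlap. The log2 fold change was -0.33 (interval -0.61 to -0.04), with a limma adjusted p of 0.321 and an exact permutation p of 0.1. These are the libraries with the higher epithelial and goblet cell markers. In them 4 of 8 fibroblast and smooth muscle markers also lay above the controls, beside 11.4% of all tested genes. In crypts Ep300 was at 7.35, 7.10 and 7.79 FPKM in wild type and 5.95, 6.57 and 7.15 FPKM in the knockout, where knockout replicate 3 reached into the wild-type range (log2 fold change -0.17, interval -0.44 to 0.11). Without knockout replicate 1 the crypt value was -0.10. The share of Crebbp in the summed FPKM of both coactivators was 33.7%, 32.4% and 25.7% in wild-type crypts and 39.6%, 39.5% and 36.3% in knockout crypts, without overlap. In tumors this share was 38.7%, 38.1% and 36.9% in controls and 38.0%, 38.1% and 44.4% in the knockout, with overlap. The shares were computed after the levels had been seen and carry no test.

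The CRTC genes differed in level. Crtc2, known as the coactivator of the fasting response in liver, was the most abundant of them in every library. It was at 8.77, 7.56 and 8.06 FPKM in wild-type crypts and 7.40, 6.87 and 7.06 FPKM in knockout crypts, with all 3 knockout libraries below all 3 controls (log2 fold change -0.18, interval -0.44 to 0.08, limma adjusted p = 0.893). In tumors the groups overlapped, at 16.6, 18.2 and 18.3 FPKM against 18.1, 15.9 and 19.3 FPKM, and the log2 fold change of 0.00 ran from -0.06 to 0.08 when single libraries were left out (without knockout replicates 3 and 2). Crtc1 is best known from neurons. In crypts its groups overlapped, at 1.48, 1.93 and 1.83 FPKM in wild type and 1.57, 1.58 and 1.45 FPKM in the knockout (log2 fold change -0.14, interval -0.50 to 0.22). This value was -0.23 without wild-type replicate 1, -0.08 without wild-type replicate 2 and -0.07 with quantile normalization. In tumors Crtc1 was at 4.98, 5.02 and 4.76 FPKM in controls and 4.51, 3.66 and 3.39 FPKM in the knockout, with all 3 knockout libraries below (log2 fold change -0.32, interval -0.62 to -0.02, limma adjusted p = 0.330, exact permutation p = 0.1). The crypt and tumor values of Crtc1 had the same sign, and their difference was not tested. Crtc3 was at 1.36, 1.18 and 1.25 FPKM in wild-type crypts and 1.23, 1.41 and 1.31 FPKM in knockout crypts, and at 4.74, 3.85 and 3.91 against 4.04, 4.09 and 4.65 FPKM in tumors, with overlap in both. Its log2 fold change in tumors was 0.03, and -0.03 to 0.12 when single libraries were left out (without knockout replicate 3 and control replicate 1).

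**Figure D2:**
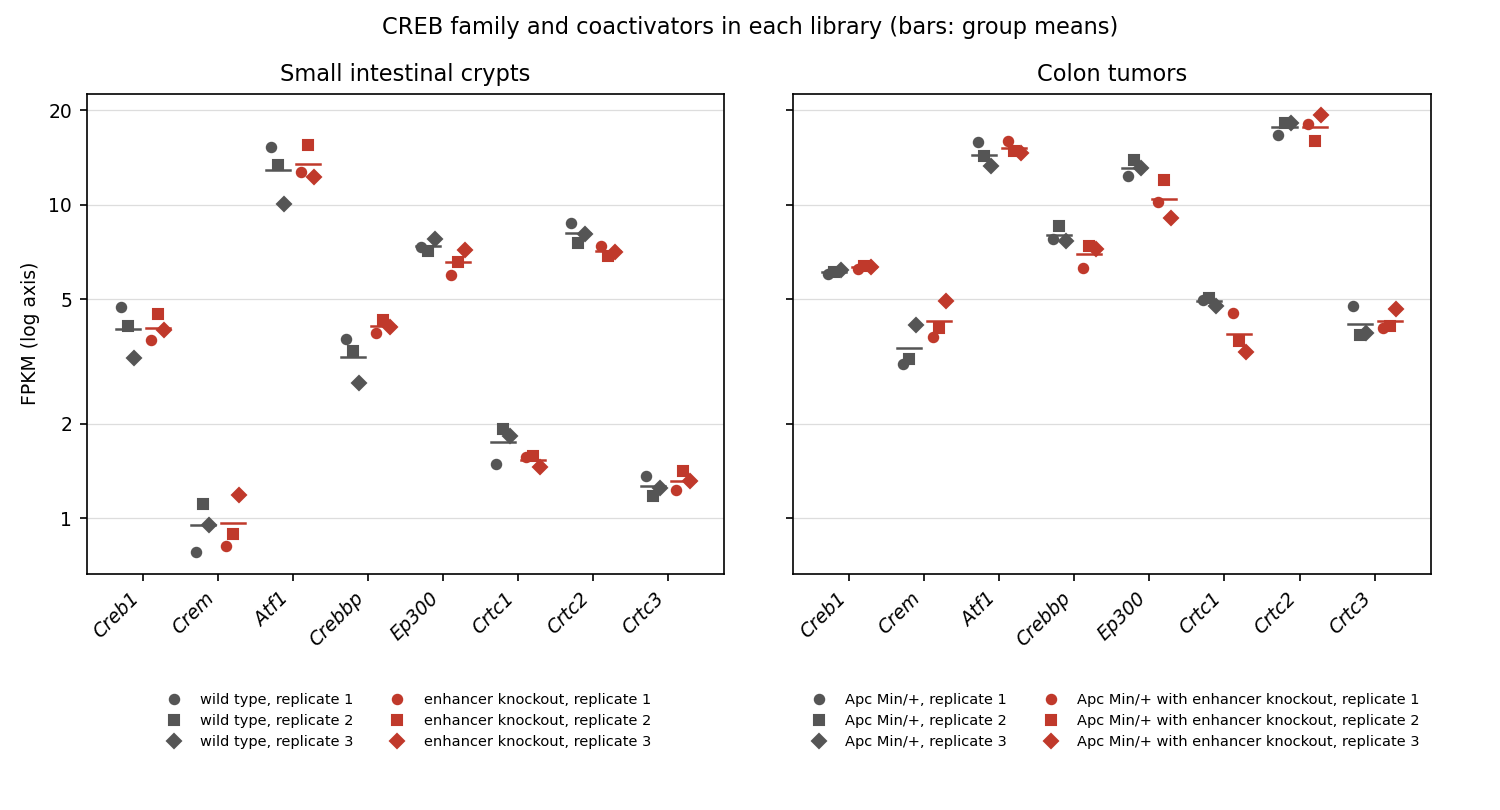
FPKM of the 8 genes (vertical log axis) in each library of crypts (left) and tumors (right), with controls in grey and the enhancer knockout in red; each symbol is a replicate and each bar a group mean. In tumors the red symbols of Ep300, Crebbp and Crtc1 lie below the grey ones, and in crypts those of Crebbp lie above.

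Across the group, no member had a limma adjusted p under 0.05 in crypts, and no gene of the 14176 tested did (0%), nor did any with voom on fragments recovered from FPKM. No member had an unadjusted p under 0.05 there either, while 829 of all tested genes did (5.85%). Crebbp and Crtc2 were the 2 members of 8 whose crypt groups did not overlap, beside 1693 of all tested genes (11.9%). Crebbp was the 1 member with the knockout above (6.79% of all tested genes) and Crtc2 the 1 with the knockout below (5.15%). The median log2 fold change of the 8 members was 0.02 in crypts, and that of all tested genes 0.01. With libraries scaled without their 50 highest genes both moved together, to -0.02 and -0.03. Without wild-type replicate 3 the median of the members was -0.10, and again none had an unadjusted p under 0.05, while 3 of all tested genes then had an adjusted p under 0.05.

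In tumors, too, no member and none of the 16743 tested genes had a limma adjusted p under 0.05 (0%), nor did any with voom, while 1 gene had one when no variance trend was used. Ep300 and Crtc1 were the 2 members with an unadjusted p under 0.05, beside 2421 of all tested genes (14.5%), and voom added Crebbp to them. Leaving out single libraries brought their number to 0 or 1. The groups of 4 of the 8 members did not overlap, beside 3693 of all tested genes (22.1%). Crebbp, Ep300 and Crtc1 had the knockout below, as did 10.6% of all tested genes, and Creb1 had the knockout above, as did 11.4%. The median log2 fold change of the 8 members was 0.02, against 0.01 for all tested genes, and both were below 0 under 4 other scalings or fits. With the same total, without the 50 highest genes, with quantile normalization and with voom the members were at -0.02, -0.03, -0.02 and -0.03, and all tested genes at -0.03, -0.03, -0.01 and -0.04. Without knockout replicate 3 the median of the members was -0.04, beside 0.000689 for all tested genes. With a group of 8 genes, these shares are a description and set nothing apart.

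**Figure D3:**
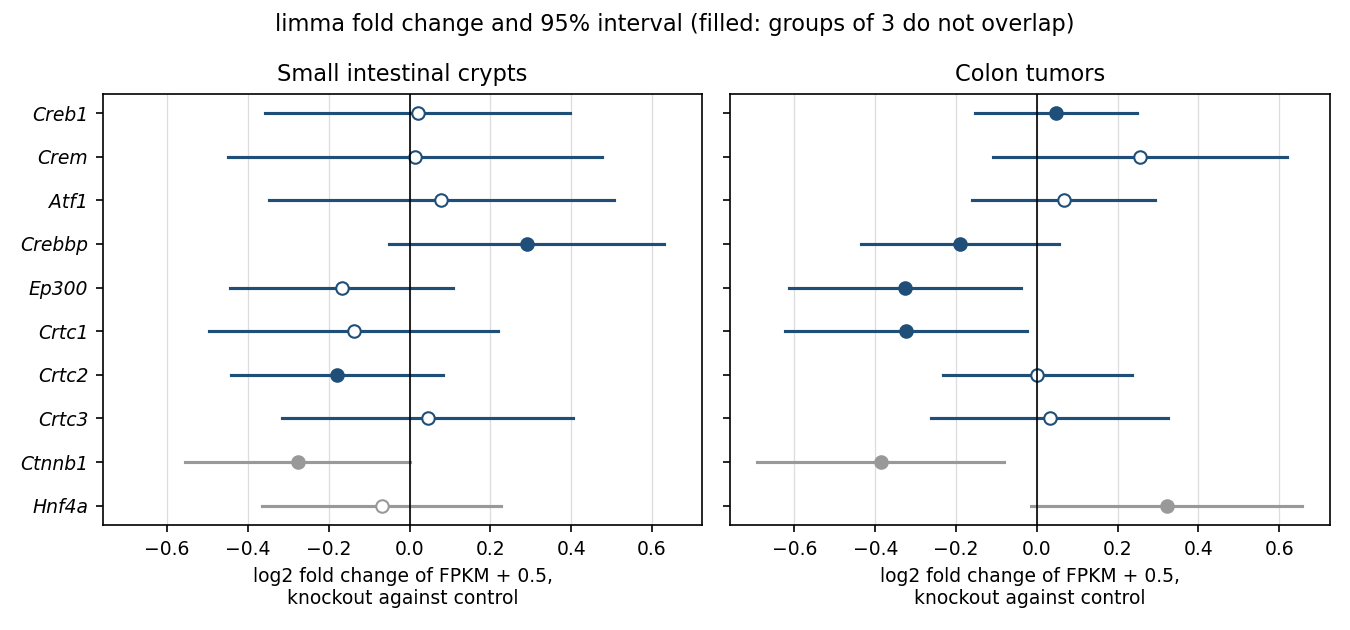
Log2 fold change of FPKM + 0.5, knockout against control, for the 8 genes (blue) and for Ctnnb1 and Hnf4a (grey), with 95% intervals from limma as lines; filled points mark groups of 3 that do not overlap. The intervals of Ep300, Crtc1 and Ctnnb1 in tumors lie below 0, and those of all 8 genes in crypts include 0.

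The order of the levels per length was read within each group. In wild-type crypts Atf1 came first with a mean of 12.9 FPKM ± 2.67 (SD, n = 3), then Crtc2 (8.13 ± 0.612), Ep300 (7.41 ± 0.347), Creb1 (4.02 ± 0.750), Crebbp (3.28 ± 0.533), Crtc1 (1.75 ± 0.233), Crtc3 (1.26 ± 0.0916) and Crem (0.947 ± 0.166). The ranges of Crtc2 and Ep300 overlapped across libraries, as did those of Creb1 and Crebbp, but within each of the 3 libraries Crtc2 lay above Ep300 and Creb1 above Crebbp. In knockout crypts Crebbp (mean 4.09, from 3.90 to 4.30) came above Creb1 (mean 4.05, from 3.71 to 4.47), with the order not the same in the 3 libraries, and the other 6 genes kept their ranks. In APCmin/+ tumors Crtc2 came first with 17.7 FPKM ± 0.929 (SD, n = 3), then Atf1 (14.5 ± 1.32), Ep300 (13.1 ± 0.805), Crebbp (8.01 ± 0.487), Creb1 (6.10 ± 0.102), Crtc1 (4.92 ± 0.142), Crtc3 (4.17 ± 0.497) and Crem (3.49 ± 0.568). There, the ranges of Atf1 and Ep300 overlapped, with Atf1 above Ep300 within each library. Those of Crtc3 and Crem overlapped too, with Crem above Crtc3 in replicate 3 and below it in the others. In the tumors with the deletion Crtc1 was the last of the 8 by mean, with 3.86 FPKM ± 0.583 (SD, n = 3), and its range overlapped with those of Crem and Crtc3. Crtc1 lay above both in replicate 1 and below both in the others.

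The likeness of other genes to Creb1 was measured across libraries. Over the 12 libraries, with each table centred on its own mean, the genes most like Creb1 among 13370 were Naa50 (Pearson r = 0.97), Ppp2r2a (0.97) and Adam17 (0.96). With the 2 libraries farthest from the median of Creb1 left out, wild-type crypt replicates 1 and 3, r was 0.87, 0.84 and 0.80. Over the 6 crypt libraries alone r was 0.98, 0.98 and 0.99, and over the 6 tumor libraries 0.63, 0.65 and -0.04, so the likeness of Adam17 rested on crypts. Of the other members, Atf1 was closest to Creb1 over all libraries, with r = 0.85 over all 12 libraries, 0.96 over the 6 crypt libraries and -0.19 over the 6 tumor libraries. In tumors alone the closest member was Crem (0.84). Without wild-type crypt replicate 3 the value over the remaining 11 libraries was 0.67 for Atf1, and that of Crebbp went from 0.52 to -0.07. These correlations pool both genotypes, share whatever differs between the libraries, and are given without a p.

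None of the members overlaps another protein-coding gene. Crem and Crtc3 share bases with the antisense genes Gm6225 and Gm15880, whose means were 0.128 and 0.0434 FPKM in crypts and 0.333 and 0.0575 FPKM in tumors. As the use of strand in counting is not given in the sources used here, fragments of such partners cannot be told apart, but these levels were a small part of those of the members. On the strand of the member, Crtc3 holds Gm44931, at a mean of 0.0631 FPKM in crypts and 0.520 FPKM in tumors, Crebbp holds Gm37186, at 0.0227 and 0.0143 FPKM, and Ep300 holds Gm22067, at 0.191 FPKM in crypts and 0 in tumors, and Gm23880, at 0 in both. Ctnnb1 overlaps Ulk4 at its end, and Ulk4 was at a mean of 0.0570 FPKM in crypts and 0.371 FPKM in tumors.

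The cAMP response element is the palindrome TGACGTCA, and TGACG is its half-site; both were searched on both strands in RefSeq promoters of GRCm38.p6, from 250 bases before to 50 bases after the start of a gene. The palindrome contains the half-site on either strand. It was found in 588 of 32851 promoters (1.79%), and the half-site in 6837 (20.8%). Promoters were found for 6 members, namely Creb1, Atf1, Crebbp, Ep300, Crtc1 and Crtc3. None of the 6 held the palindrome, and that of Atf1 held 1 half-site, which starts 90 bases before the start of the gene. The more downstream of 2 promoters of Ctnnb1 held 2 half-sites, both read on the opposite strand. The CREB1 site predicted by the study in the mouse enhancer, TGACGTCT, holds the half-site as well. The CREB1 site it predicted in the mouse Ctnnb1 promoter, TGAAGTCA, does not and was found in none of the Ctnnb1 promoters searched here. These short windows may not cover the promoter region that the study searched. By chromatin immunoprecipitation the study reported HNF4α and phosphorylated CREB1 at the Ctnnb1 promoter in crypts and in APCmin/+ colon tumors. It reported less of both there in tumors with the enhancer deleted. The promoters of Atf1 and Ctnnb1 are shown because they carry the letters that CREB is known to bind, within the family and in the enhancer's target; capitals mark the half-sites.
Atf1 promoter, chr15:100227609-100227908, plus strand: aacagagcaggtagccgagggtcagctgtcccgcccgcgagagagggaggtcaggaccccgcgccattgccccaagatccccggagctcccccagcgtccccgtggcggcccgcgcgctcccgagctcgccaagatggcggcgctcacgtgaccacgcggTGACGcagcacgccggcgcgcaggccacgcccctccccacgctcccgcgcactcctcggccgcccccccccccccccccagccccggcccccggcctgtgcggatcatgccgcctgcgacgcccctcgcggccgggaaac
Ctnnb1 promoter, chr9:120933328-120933627, plus strand: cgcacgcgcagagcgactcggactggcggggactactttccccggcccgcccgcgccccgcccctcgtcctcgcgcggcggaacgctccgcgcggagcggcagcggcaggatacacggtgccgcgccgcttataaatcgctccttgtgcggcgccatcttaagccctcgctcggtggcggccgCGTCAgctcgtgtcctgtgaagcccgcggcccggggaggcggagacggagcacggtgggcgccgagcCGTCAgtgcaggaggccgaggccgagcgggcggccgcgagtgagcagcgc

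Upstream of the family stand the enzymes of cyclic AMP. Of 25 genes of its synthesis and breakdown, 15 were tested in crypts and none had an unadjusted limma p under 0.05 (5.85% of all tested genes). In tumors 22 were tested and 3 had one (14.5% of all tested genes), none with an adjusted p under 0.05. Adenylyl cyclase Adcy1 was at 8.53, 9.41 and 11.8 FPKM in control tumors and 6.66, 6.93 and 5.16 FPKM in knockout tumors, all 3 below (log2 fold change -0.62, limma adjusted p = 0.269). Adcy4, another adenylyl cyclase, was at 1.81, 1.84 and 1.15 FPKM against 2.43, 2.71 and 2.47 FPKM, all 3 above. The phosphodiesterase Pde4a, which breaks cyclic AMP down, was at 1.07, 0.903 and 0.926 FPKM against 1.27, 1.90 and 1.36 FPKM, also all above.

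Among 12 genes of protein kinase A, its inhibitors and its anchors, Pkig was named in both tissues. It encodes an inhibitor peptide of the catalytic subunit. Pkig was at 8.89, 7.72 and 8.59 FPKM in wild-type crypts and 10.1, 11.1 and 9.87 FPKM in knockout crypts, and at 7.83, 7.17 and 7.01 FPKM in control tumors and 10.6, 8.19 and 10.98 FPKM in knockout tumors. All 3 knockout libraries lay above the controls in both tissues, with log2 fold changes of 0.29 in crypts (limma adjusted p = 0.844) and 0.40 in tumors (limma adjusted p = 0.302). It was the 1 gene of 8 tested in crypts with an unadjusted p under 0.05 (5.85% of all tested genes). In tumors 3 of 11 had one (14.5%). The catalytic subunit Prkaca was at 29.8, 31.1 and 32.3 FPKM in control tumors and 34.4, 35.8 and 36.8 FPKM in knockout tumors, all 3 above (log2 fold change 0.20, and 0.09 with quantile normalization, where its unadjusted p was no longer under 0.05). The anchor Akap9 was at 8.69, 9.47 and 11.4 FPKM against 7.35, 8.90 and 6.11 FPKM, with overlap.

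Of 22 other kinases and phosphatases of CREB, 20 were tested in each tissue. None in crypts (5.85% of all tested genes) and 1 in tumors (14.5%) had an unadjusted limma p under 0.05. That gene, Camk2g, a calcium and calmodulin dependent kinase, was at 6.62, 6.05 and 6.88 FPKM in control tumors and 5.86, 5.22 and 4.77 FPKM in knockout tumors, all 3 below (log2 fold change -0.28). Of the 17 genes that control CRTC proteins, all were tested, none passed an unadjusted p of 0.05 in crypts (5.85% of all tested genes) and 1 did in tumors (14.5%). Ywhah, a 14-3-3 protein, was at 76.5, 66.3 and 67.6 FPKM in control tumors and 88.5, 89.0 and 105 FPKM in knockout tumors, all 3 above (log2 fold change 0.42, limma adjusted p = 0.269). With quantile normalization its value was 0.25.

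Known target genes of CREB were read next. Of 23, 19 were tested in crypts, and 13 of these had a negative and 6 a positive log2 fold change, with a median of -0.16 beside 0.01 over all tested genes, of which 52.8% were positive. This median had no stable sign: it was 0.02 without wild-type replicate 3 and 0.05 without knockout replicate 1, with 10 and 11 of 19 genes positive, and ran down to -0.33 without knockout replicate 2. In tumors 22 were tested, with 16 positive and 6 negative values and a median of 0.28 beside 0.01 over all tested genes, of which 51.3% were positive. It was 0.13 to 0.34 when single libraries were left out, lowest without knockout replicate 3, and 0.20 with quantile normalization. In the same libraries the median was 0.31 for epithelial, 1.13 for goblet cell and 0.36 for fibroblast and smooth muscle markers, and the part of cell types in the target genes was not tested. In crypts 2 had an unadjusted limma p under 0.05 (5.85% of all tested genes) and none an adjusted one. Sst, the somatostatin gene of enteroendocrine D cells, was at 74.0, 84.6 and 79.5 FPKM in wild type and 56.1, 60.7 and 65.8 FPKM in the knockout, all 3 below (log2 fold change -0.38, limma adjusted p = 0.799). From whole crypts, fewer cells of a type and less RNA per cell cannot be told apart. Dusp1, a phosphatase of MAP kinases, was at 3.26, 1.503 and 1.75 FPKM against 0.774, 1.46 and 1.08 FPKM, all 3 below (log2 fold change -0.70, limma adjusted p = 0.845). Wild-type replicate 1 was the highest for Dusp1, and without it the log2 fold change was -0.43.

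Promoters were found for 19 of the 23 target genes, and 18 of these genes held the half-site in at least 1 promoter, beside 23.0% of all 27025 genes with a promoter. The palindrome was in 4, namely Areg, Btg2, Dusp1 and Sst, beside 2.03% of all genes. The genes of the list were chosen as known targets, so this share is no independent sign of binding. Sst and Dusp1 are the targets described above for crypts, and their promoters are shown with the half-sites and the palindrome in capitals.
Sst promoter, chr16:23890795-23891094, minus strand: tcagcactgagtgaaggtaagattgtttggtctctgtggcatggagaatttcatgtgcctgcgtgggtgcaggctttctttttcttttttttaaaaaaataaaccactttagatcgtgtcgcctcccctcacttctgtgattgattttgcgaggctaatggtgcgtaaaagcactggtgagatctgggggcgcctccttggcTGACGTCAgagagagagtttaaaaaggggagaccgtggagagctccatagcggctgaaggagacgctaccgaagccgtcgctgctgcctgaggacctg
Dusp1 promoter, chr17:26508423-26508722, minus strand: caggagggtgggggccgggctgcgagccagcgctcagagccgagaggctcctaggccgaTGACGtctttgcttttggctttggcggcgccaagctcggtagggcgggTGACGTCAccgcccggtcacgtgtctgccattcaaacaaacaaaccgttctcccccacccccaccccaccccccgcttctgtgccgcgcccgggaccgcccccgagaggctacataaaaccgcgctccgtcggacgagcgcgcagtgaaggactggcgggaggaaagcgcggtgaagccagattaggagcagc

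The other 2 targets with the palindrome, named after the search of their promoters, overlapped between genotypes in both tissues. Areg, an epidermal growth factor receptor ligand, was at 3.88, 5.33 and 3.41 FPKM in wild-type crypts and 1.92, 3.73 and 5.04 FPKM in knockout crypts. Btg2, an antiproliferative gene, was at 15.8, 27.2 and 29.7 FPKM against 16.3, 19.8 and 28.4 FPKM. In tumors, Areg was at 13.3, 7.78 and 22.5 FPKM in controls and 19.7, 32.7 and 15.9 FPKM in the knockout, and Btg2 at 41.0, 43.4 and 43.1 against 38.9, 47.1 and 48.2 FPKM. Dusp1 was at 21.4, 20.9 and 36.4 FPKM in control tumors and 31.7, 23.8 and 37.2 FPKM in knockout tumors, and Sst at 1.37, 0.672 and 1.76 against 1.38, 1.21 and 0.889 FPKM, both with overlap.

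In tumors 3 other targets of the 22 tested had an unadjusted limma p under 0.05 (14.5% of all tested genes), and none an adjusted one. Mcl1, a survival protein of the BCL2 family, was at 88.0, 87.0 and 97.8 FPKM in controls and 105, 116 and 116 FPKM in the knockout, all 3 above. Rgs2, which limits signals of G proteins, was at 9.15, 8.35 and 9.72 FPKM against 10.3, 11.8 and 11.3 FPKM, all 3 above. Ppargc1a, a coactivator of mitochondrial genes, was at 3.86, 5.17 and 7.56 FPKM against 3.72, 2.61 and 3.48 FPKM, all 3 below. Their log2 fold changes were 0.30, 0.28 and -0.64, the last of which was -0.41 without control replicate 3. With quantile normalization Mcl1 was at 0.12 and no longer had an unadjusted p under 0.05.

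Among 16 other CREB and ATF factors, 15 were tested in each tissue. None in crypts (5.85% of all tested genes) and 3 in tumors (14.5%) had an unadjusted limma p under 0.05. The membrane-bound factor Creb3l3, a regulator of lipid genes in enterocytes and liver, was at 0.942, 0.643 and 0.887 FPKM in control tumors and 1.32, 1.74 and 1.53 FPKM in knockout tumors, all 3 above. Its relative Creb3l1 was at 31.3, 26.1 and 31.9 FPKM against 39.7, 46.2 and 35.0 FPKM, all 3 above, and Crebrf at 4.41, 4.36 and 4.91 FPKM against 3.16, 3.84 and 3.14 FPKM, all 3 below. In tumors 11 of these 15 factors had a positive log2 fold change, and in crypts 7. Of 19 other acetyltransferases and partners of CBP and p300, 18 were tested in crypts and 19 in tumors. None in crypts (5.85%) and 2 in tumors (14.5%) had an unadjusted limma p under 0.05. Their log2 fold changes were negative for 12 of 18 in crypts and 14 of 19 in tumors, with medians of -0.08 and -0.09. Over all tested genes 52.8% were positive in crypts and 51.3% in tumors. The part of cell types in this was not tested. Cited4, which binds CBP and p300, was at 14.4, 14.6 and 15.5 FPKM in control tumors and 20.2, 16.6 and 24.2 FPKM in knockout tumors, all 3 above. The arginine methyltransferase Carm1 was at 18.1, 18.9 and 19.3 against 17.6, 15.8 and 14.2 FPKM, all 3 below.

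**Figure D4:**
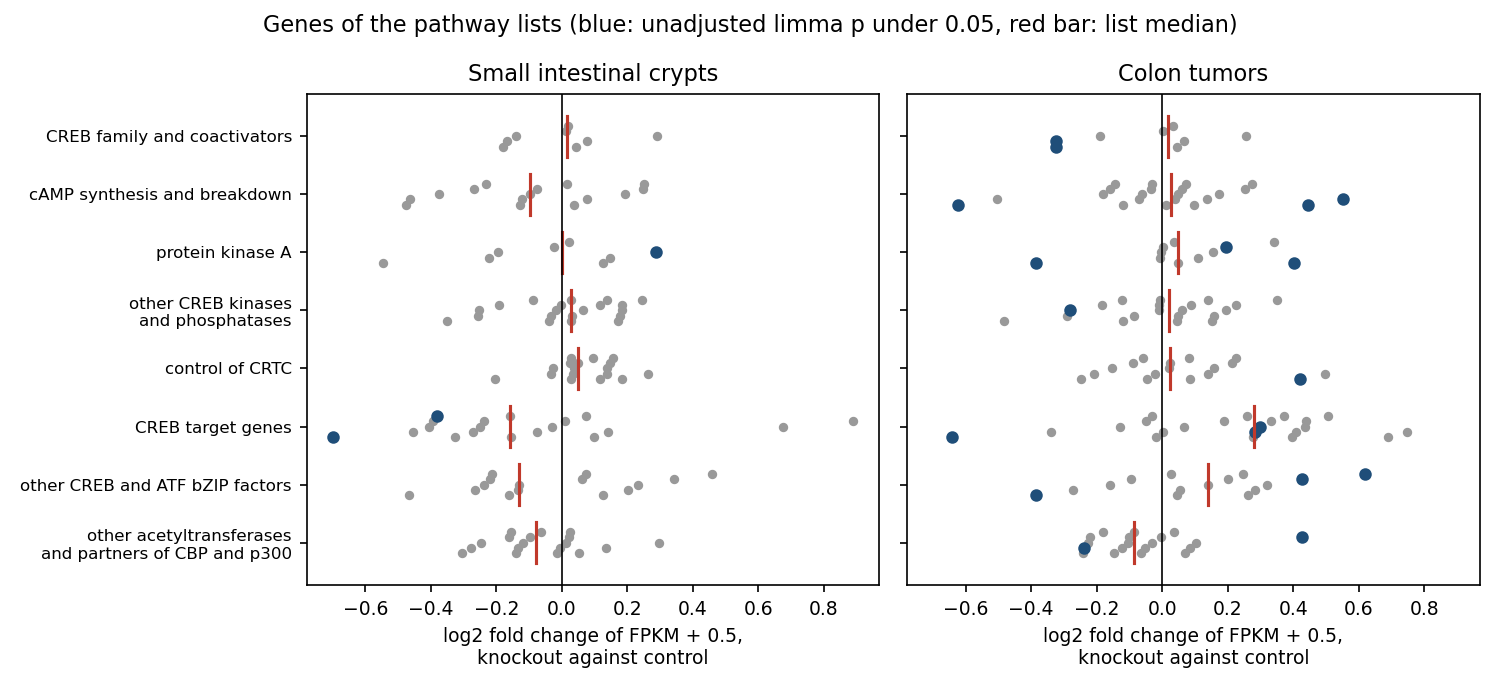
Log2 fold change of FPKM + 0.5, knockout against control, for each tested gene of the 8 lists in crypts (left) and tumors (right); blue points have an unadjusted limma p under 0.05 and red bars are list medians. Blue points number 3 of 120 in crypts and 18 of 134 in tumors, beside 5.85% and 14.5% of all tested genes, and no point has an adjusted p under 0.05.

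HNF4α is the other factor that the study reports at the enhancer beside CREB1. Its gene, Hnf4a, was at 154, 140.0 and 162 FPKM in wild-type crypts and 144, 147 and 143 FPKM in knockout crypts, with overlap. In tumors it was at 72.5, 69.5 and 61.1 FPKM in controls and 78.9, 102 and 74.8 FPKM in the knockout, all 3 above (log2 fold change 0.32, interval -0.01 to 0.66, limma adjusted p = 0.361). The tumor value was 0.19 without knockout replicate 2 and 0.18 with quantile normalization.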

How the data were processed

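RNA-seq libraries of small intestinal crypts and colon tumors, 12 in all, were grouped by the genotype and tissue in their labels. The authors deposited FPKM per gene and library, in a table for each tissue, with replicates not pooled. The study's methods name HISAT2 for alignment and featureCounts for counting, while the submitters' processing notes name cutadapt, HISAT2, Cufflinks 2.2.1 and the build mm10. Whether counting used strand, and how FPKM were scaled, is not given in the sources used here. Gene positions matched GENCODE M21 (GRCm38) for 53499 of 54409 shared genes.

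Genes with a mean of at least 0.5 FPKM over the 6 libraries of a tissue were tested (14176 in crypts, 16743 in tumors). The test was limma 3.58.1 under R 4.3.3, with a variance trend, applied to the log2 of FPKM plus 0.5, without covariates. Benjamini-Hochberg adjustment covered all tested genes of a tissue, with a threshold of 0.05. The pseudocount shrinks fold changes of genes at low FPKM. An exact permutation test, two-sided, was added for single genes, and its smallest possible p is 0.1 with groups of 3. The procedure was tested on simulated data. Besides the members, Ctnnb1 and Hnf4a, the text names up to 3 genes of each list per tissue with the smallest unadjusted p under 0.05. It also names the 3 genes most like Creb1 and the most abundant gene of each marker list by mean. Outside this rule, and after the promoters were searched, it names the targets with the palindrome. S100a8, Defa17, Ascl2, Lgr5 and the genes that overlap members or Ctnnb1 are outside this rule as well. Members and lists were chosen with earlier results of these data known. Alternatives were another pseudocount (0.1 or 1), filter (none, or a mean of at least 1 FPKM), scaling or normalization, no variance trend, robust moderation, voom on fragments recovered from FPKM, the replicate number as a block, and leaving out each library.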

Additional observations from a re-analysis of the deposited data

Results flagged for a closer look

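Crebbp differed in direction between the tissues. In crypts every knockout library lay above every wild-type library (log2 fold change 0.29), and in tumors every knockout library lay below every control (log2 fold change -0.19). The tumor value minus the crypt value was -0.48. This difference was not tested, and neither value passed the threshold of its own comparison (limma adjusted p = 0.860 and 0.424). In crypts the wild-type library with the lowest Crebbp, replicate 3 at 2.69 FPKM, was also the one with the highest summed Paneth cell markers, most of it Defa24, and without it the crypt value was 0.17. The tumor value was -0.12 without knockout replicate 1. In tumors the epithelial and goblet cell markers lay above the controls in the same knockout libraries. So did 4 of 8 fibroblast and smooth muscle markers, beside 11.4% of all tested genes. The part of these markers in the result was not tested in either tissue.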

How the results depend on the processing

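No member had a limma adjusted p under 0.05 in either tissue under any alternative or with any library left out. The values of Crebbp, Ep300, Crtc1, Crtc2 and Crtc3 in crypts, and of Creb1, Crem, Atf1, Crebbp, Ep300 and Crtc1 in tumors, kept their sign under every setting run. Over all settings the adjusted p ranged from 0.252 to 0.613 for Ep300 and from 0.248 to 0.613 for Crtc1 in tumors, and was at least 0.519 for Crebbp in crypts.

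Some log2 fold changes changed sign with the scaling or normalization, most of them along with the median of all tested genes. In crypts, rescaling to the same total without the 50 highest genes took that median from 0.0144 to -0.0304, and gave -0.0258 for Creb1, -0.0199 for Crem and -0.0229 for the median of the members. The 50 highest genes of each library held 23.8%, 30.0% and 28.4% of the fragments in wild-type crypts and 22.5%, 21.6% and 25.8% in knockout crypts. Quantile normalization gave 0.10 for Tff3, against -0.25. In tumors the median of all tested genes was 0.00751, and -0.0324 with the same total, -0.0330 without the 50 highest genes, -0.0147 with quantile normalization and -0.0368 with voom. Crtc2 was at -0.0418 with the same total, -0.0425 without the 50 highest genes, -0.0727 with quantile normalization and -0.0433 with voom. Crtc3 was at -0.00811, -0.00869 and -0.0102 with the first, second and last of these, Btg2 at -0.0535 with quantile normalization and Cdh5 at -0.000644 with voom. The median of the members in tumors was -0.0250, -0.0256, -0.0246 and -0.0267 under the 4 settings in that order. With quantile normalization Tff3, Crtc2 and Btg2 moved further than the median of all tested genes, and the reason for this was not tested.

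Leaving out each library gave ranges that crossed 0 in crypts for Creb1 (-0.11 to 0.13), Crem (-0.0918 to 0.0940), Atf1 (-0.0862 to 0.21), Areg (-0.54 to 0.0616), Btg2 (-0.43 to 0.0197), Olfm4 (-0.0452 to 0.38) and the median of the members (-0.0986 to 0.0776). In tumors they did for Crtc2 (-0.0583 to 0.0763), Crtc3 (-0.0264 to 0.12), Sst (-0.32 to 0.15), Smoc2 (-0.25 to 0.00802), Cdh5 (-0.0170 to 0.0882), Lyz2 (-0.25 to 0.21) and the median of the members (-0.0424 to 0.0479). Members with an unadjusted p under 0.05 numbered 0 to 1 in crypts, where Crebbp passed without wild-type replicate 1, and 0 to 1 in tumors, against 2 with all libraries. Ep300 passed without APCmin/+ replicate 1 or without APCmin/+;ieCtnnb1KO replicate 2, Crtc1 without APCmin/+;ieCtnnb1KO replicate 1, and neither without any other tumor library. Fewer libraries enter these fits. All tested genes with an adjusted p under 0.05 numbered 0 to 3 in crypts when a library was left out, the 3 being without wild-type replicate 3, and 1 in tumors with no variance trend.

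Libraries with the same replicate number are of different genotypes and are not known to share a day, and the correlations of their deviations from the group means were -0.0466, -0.122 and 0.0370 in crypts and 0.0541, -0.0898 and 0.0525 in tumors. With the replicate number as a block, 1 member (Ep300) had an unadjusted p under 0.05 in tumors instead of 2, and no gene in either tissue had an adjusted p under 0.05. Crem had a mean under 1 FPKM in crypts and Pecam1 did too, so that filter gave no value for them. Depth limits Crem most, at 71 to 100 fragments per crypt library.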
